A study of Mus musculus with 30 samples.

Results

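The 10 genes described here encode long non-coding RNAs tied to growth arrest, to small nucleolar RNAs or to nuclear bodies: Gas5, the small nucleolar RNA host genes Snhg1, Snhg3, Snhg4, Snhg5, Snhg6, Snhg8 and Snhg12, and the nuclear RNAs Neat1 and Malat1. They were chosen by name, as Gas5, small nucleolar RNA host genes, Neat1 and Malat1, and by no cutoff on their measured values. Earlier results of these data were known when the choice was made. All 10 passed the authors' filter on low values, among the 12016 genes of the count table and the 55573 genes of the wider table of CPM (the reads of a gene per 1000000 reads of its library).

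The cells were 3T3-L1, an established mouse fibroblast line that can be turned into adipocytes, in preadipocyte medium. The 6 groups were Kdm5c siRNA day −2, scramble day −2, Kdm5c siRNA day −1, scramble day −1, Kdm5c siRNA day 0 and scramble day 0, with 5 libraries each, 30 in all. Every group received 50 nM of siRNA with a lipid reagent while the cells were still sub-confluent, either against Kdm5c, an X-linked gene for a histone H3 lysine demethylase, or a non-targeting control called scramble here. By the day numbers, RNA was taken 24 h after transfection on day −2, 48 h on day −1 and 72 h on day 0. Scramble cells were transfected too, and no untransfected group is compared. Nothing in the labels tells whether the 5 replicates of a group are 5 cultures, and each p is therefore set against a spread between libraries that could be technical. In bulk RNA, fewer cells of a type and less RNA per cell cannot be told apart.

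Small nucleolar RNA host genes are transcribed as spliced RNAs whose introns carry small nucleolar RNAs. Most of these are guide RNAs for the chemical modification of ribosomal and spliceosomal RNA. The introns yield the small RNAs, and the spliced exons often encode no protein. Several such hosts, Gas5 among them, begin with a 5′ terminal oligopyrimidine tract (TOP), the cap-proximal sequence that ribosomal protein mRNAs share. Their exons are engaged by ribosomes and then destroyed by nonsense-mediated decay in growing cells, and Gas5 RNA was first isolated because it accumulates when fibroblasts stop dividing. Malat1 gathers in nuclear speckles, which store splicing factors. Neat1, its neighbour on the chromosome, is the scaffold of paraspeckles, bodies that hold back some nuclear RNAs and proteins. The ends of Malat1 and of the long form of Neat1 are made by RNase P instead of the usual polyadenylation, so their level in a library made with a kit for mRNA depends on how such ends are taken up.

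Library totals were 25217905 to 33725717 reads, and the 10 RNAs had 157 to 35841 reads per library. Kdm5c itself averaged 25.5 ± 1.29, 35.6 ± 3.57 and 53.3 ± 2.37 CPM on days −2, −1 and 0 in Kdm5c siRNA libraries, against 157 ± 1.75, 189 ± 2.91 and 212 ± 4.84 CPM in scramble libraries (SD, n = 5 each), which is 16.2%, 18.9% and 25.2% of the scramble level. The labelled cell type was checked with marker lists. The 8 preadipocyte and fibroblast markers summed to 26686 to 39939 CPM by library, and none was at 0. The 6 adipocyte markers summed to 9.73 to 35.5 CPM, nearly all of it Fabp4 (9.73 to 35.1 CPM), and Adipoq never exceeded 0.159 CPM. Epithelial markers summed to at most 0.391 CPM, endothelial to at most 2.76, skeletal muscle to at most 6.10 and blood and macrophage markers to at most 12.9 CPM. Epcam, Adgre1 and Myod1 had 0 reads in every library; the upper limit behind a 0 is 3 reads, or 0.089 to 0.119 CPM depending on the library, and covers counting error alone.

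Of the 10 genes, 9 matched a symbol in the GENCODE M21 annotation of mouse build GRCm38, and Snhg4 was matched as ENSMUSG00000117869 through its RefSeq transcript. Gas5 (ENSMUSG00000053332) spans chromosome 1, 161034422 to 161038539 on the plus strand. Snhg12 (ENSMUSG00000086290) spans chromosome 4, 132308623 to 132311024 on the plus strand, and Snhg3 (ENSMUSG00000085241) lies near it at 132348014 to 132353686 on the minus strand. Snhg8 (ENSMUSG00000104960) spans chromosome 3, 123507552 to 123508404 on the minus strand. Neat1 (ENSMUSG00000092274) and Malat1 (ENSMUSG00000092341) lie on the minus strand of chromosome 19, at 5824708 to 5845478 and 5795690 to 5802672, and Snhg1 (ENSMUSG00000108414) lies on the plus strand of the same chromosome at 8723475 to 8726443. Snhg5 (ENSMUSG00000097195) is on chromosome 9, Snhg6 (ENSMUSG00000098234) on chromosome 1 and Snhg4 on chromosome 18.

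Some of these annotations overlap other genes, and the libraries keep strand, but the sources used here do not say whether the counting used it. Snhg3 shares 135 exon bases on the same strand with Rcc1, the nucleotide exchange factor of the nuclear GTPase Ran, and 705 bases with the predicted gene Gm17300 on the opposite strand, which had 155 reads over all 30 libraries. How the authors' counting assigned reads in the bases shared with Rcc1 is not given, so the Snhg3 level is uncertain to that extent. Snhg4 shares 246 exon bases with Gm28285, which had 206 reads in all. On the opposite strand, Malat1 shares 453 bases with Gm37376, which had 314 reads, and Snhg6 shares 127 with Mcmdc2, which had 8. The gene span of Gas5 overlaps Zbtb37 on the opposite strand, with 0 exon bases in common. Of 37 annotated small RNA records inside the 10 genes, 3 had reads, 2124 in all over 30 libraries: Snora73b with 1735 and Snora73a with 144 inside Snhg3, and Snord87 with 245 inside Snhg6. Snora73b and Snord87 share 0 bases with annotated host exons and Snora73a shares 159 of its 205, while nearly all of the small RNAs without reads lie wholly inside annotated host exons. The annotation of these hosts includes many isoforms with a retained intron. A listed 0 therefore does not show that a guide RNA was absent, and reads from introns or guide RNAs may be part of the host counts.

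Start sites are shown because a TOP sequence is defined there, as a C at the first base followed by an unbroken run of C and T. The RefSeq promoter table (build GRCm38.p6) held 8 start sites for 7 of the 10 genes; Snhg4, Snhg6 and Neat1 are named only. The windows hold 10 bases before the annotated first base and 20 from it onward, in lower case, and capitals mark a run of at least 5 C or T that begins between 5 bases before and 10 bases after the start.
Gas5 start site 1: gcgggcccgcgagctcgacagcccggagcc
Gas5 start site 2: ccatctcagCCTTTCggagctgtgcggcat
Snhg8: gttcagaagTCTCTTTggctgcgatccgcc
Snhg12: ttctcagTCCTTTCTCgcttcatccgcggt
Snhg1: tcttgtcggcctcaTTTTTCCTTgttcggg
Snhg5: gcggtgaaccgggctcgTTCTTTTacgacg
Snhg3: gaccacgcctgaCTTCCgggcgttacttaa
Malat1: ggctctgcgtcaggcattcaggcagcgaga
The windows lie at chr1:161034591-161034620 and chr1:161035156-161035185 for Gas5 (plus strand), chr3:123508317-123508346 for Snhg8 (minus strand), chr4:132308668-132308697 for Snhg12 (plus strand), chr19:8723477-8723506 for Snhg1 (plus strand), chr9:88522878-88522907 for Snhg5, chr4:132353667-132353696 for Snhg3 and chr19:5802653-5802682 for Malat1 (minus strand each). At the second Gas5 site and at Snhg8 the annotated first base is a C followed by 4 more C or T, which 2.51% of 32851 start sites in the table hold, and 17.8% of the 73 start sites of cytosolic ribosomal protein genes. Snhg12 has its run begin 3 bases before the annotated start, and the first base is then a T. The runs of Snhg3, Snhg1 and Snhg5 begin some bases downstream of it, and Malat1 and the first Gas5 site hold none. By the looser measure, 6 of the 8 sites hold a run, against 29.9% of all start sites and 45.2% of those of ribosomal protein genes. Only the strand of the gene was read, and these are letters at annotated starts, not mapped starts in these cells.

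Levels between genes can be compared only per length. Per kilobase of the longest isoform without a retained intron (665 bases), Gas5 stood at 245 ± 4.02 CPM per kilobase in Kdm5c siRNA day 0 libraries and 282 ± 5.42 in scramble day 0 libraries, the highest of the 10 in both. Malat1, taken as 6983 bases, stood at 160.3 ± 6.60 CPM per kilobase in Kdm5c siRNA day 0 libraries and 170.1 ± 13.8 in scramble day 0 libraries. For Neat1 the level hangs on the form assumed: over 3004 bases it was 58.0 ± 2.38 CPM per kilobase in Kdm5c siRNA day 0 libraries and 54.0 ± 2.68 in scramble day 0 libraries, and over the long form of 20771 bases it was 8.38 ± 0.345 with Kdm5c siRNA and 7.82 ± 0.388 with scramble. Snhg3 and Snhg4 were low, at 12.8 ± 1.50 and 10.5 ± 1.39 CPM per kilobase in scramble day 0 libraries. Divided by all annotated exon bases instead (3760 for Gas5), Gas5 fell behind Malat1, with 49.9 against 170.1 CPM per kilobase in scramble day 0 libraries, so the order between genes depends on the isoform assumed. All comparisons from here on are of one gene between groups.

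**Figure D1:**
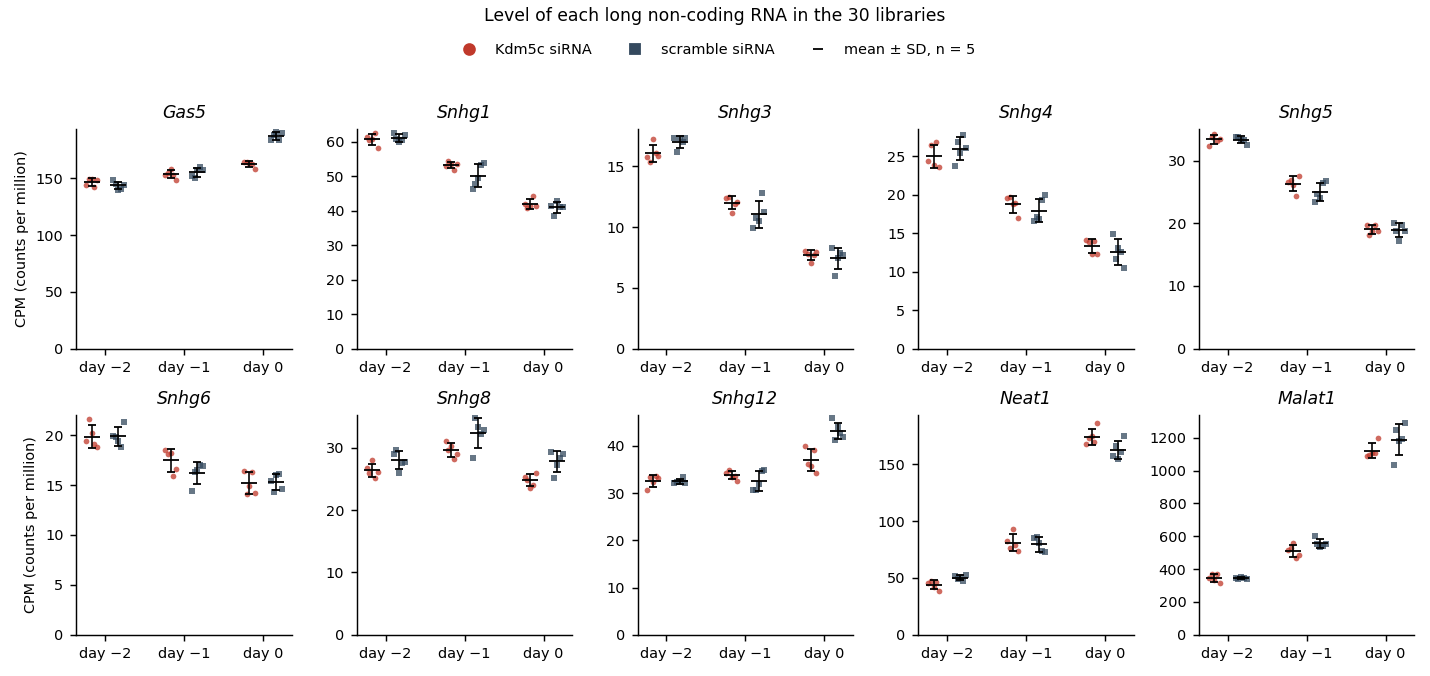
Level of each RNA in CPM (vertical axes, from 0) in each of the 30 libraries by day, with Kdm5c siRNA as red circles left of scramble as dark squares; black marks are mean ± SD, n = 5. Neat1 and Malat1 climb over the 3 days in both siRNA groups, Snhg1, Snhg3, Snhg4, Snhg5 and Snhg6 decline, and the Gas5 and Snhg12 groups part on day 0.

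The time course of the scramble libraries shows how these RNAs moved without loss of Kdm5c. From day −2 to day 0, 4 of the 10 were higher (Gas5, Snhg12, Neat1 and Malat1), 5 were lower (Snhg1, Snhg3, Snhg4, Snhg5 and Snhg6) and Snhg8 was not called, at an adjusted p under 0.05 in edgeR's quasi-likelihood test over all genes. Of all 12016 genes 88.2% were called in this comparison, 44.6% as higher and 43.6% as lower, so being called says little about these RNAs. In 9 of the 10 no scramble day 0 library overlapped a scramble day −2 library, as in 80.2% of all genes. Sizes and directions differed among the 10 RNAs, with log2 fold changes from −1.23 (Snhg3) to 1.75 (Malat1). The median was −0.23 over the 10 RNAs and 0.00 over all genes tested, and it does not stand for a shift shared by the 10. Marker sums moved over the same days: the adipocyte markers summed to 21.97 to 28.8 CPM in scramble day 0 libraries and 10.3 to 12.7 CPM in scramble day −2 libraries, and the fibroblast markers to 36266 to 39939 CPM on day 0 and 26686 to 27718 CPM on day −2. Their part in the time course of the RNAs was not tested. Step by step, day −1 over day −2 had 3 RNAs called as higher and 5 as lower (78.9% of all genes called, 39.5% as higher and 39.4% as lower), and day 0 over day −1 had 4 higher and 5 lower (74.7%, 36.8% and 37.9%). In either step 8 of the 10 RNAs had no overlap between the days, against 66.3% of all genes in the first step and 60.8% in the second.

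Malat1 and Neat1 rose over 3-fold. Malat1 had 344, 373, 333, 371 and 318 CPM in Kdm5c siRNA libraries and 347, 341, 353, 346 and 337 CPM in scramble libraries on day −2. On day −1 it had 514, 527, 558, 465 and 483 CPM with Kdm5c siRNA and 601, 554, 536, 540.1 and 551 CPM with scramble. On day 0 it reached 1087, 1095, 1105, 1108 and 1200.4 CPM with Kdm5c siRNA and 1035, 1244, 1181, 1189 and 1290.1 CPM with scramble. Within either siRNA, each day lay wholly above the day before it. The scramble mean on day 0 was 3.44 times that on day −2 (log2 fold change 1.75, SE 0.05, adjusted p = 1.47e-26), and 445 of the other genes tested had a higher log2 fold change.

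Neat1 followed the same path at a lower level. It had 45.7, 47.6, 41.7, 46.4 and 38.3 CPM in Kdm5c siRNA libraries and 51.6, 48.9, 51.2, 47.0 and 52.2 CPM in scramble libraries on day −2. On day −1 the values were 82.7, 76.5, 92.8, 78.9 and 73.4 CPM with Kdm5c siRNA and 85.5, 85.8, 80.4, 73.4 and 72.6 CPM with scramble. Day 0 brought 168, 173, 174, 169 and 186 CPM with Kdm5c siRNA and 157, 166, 154, 160.4 and 174 CPM with scramble. The days did not overlap within either siRNA. The scramble rise from day −2 was 3.23-fold (log2 fold change 1.65, SE 0.06, adjusted p = 2.33e-24), with 511 genes higher in fold change, and in Kdm5c siRNA libraries it was 3.96-fold (log2 fold change 1.94, SE 0.06, adjusted p = 4.51e-26). Most of the rise of both RNAs came late: between day 0 and day −1 of the scramble libraries the log2 fold changes were 1.06 for Neat1 and 1.13 for Malat1, against 0.59 and 0.62 between day −1 and day −2.

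Since Malat1 and long Neat1 lack a usual poly(A) tail, other such transcripts were read beside them. The 26 replication histone genes listed summed to 24.1 to 27.3 CPM in scramble day 0 libraries and 21.8 to 24.5 CPM in scramble day −2 libraries. In Kdm5c siRNA libraries the sums were 18.8 to 22.9 CPM on day 0 and 20.4 to 24.7 CPM on day −2. The 10 other listed transcripts without a tail, such as the 7SK RNA Rn7sk, summed to 3.32 to 5.54 CPM in scramble day 0 libraries and 2.99 to 10.4 CPM in scramble day −2 libraries. The part of tail-less ends in the rise of Malat1 and Neat1 was not tested.

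Gas5 and Snhg12, host of guide RNAs of both classes, rose late and by less. Gas5 had 144, 149.5, 149, 142 and 148 CPM in Kdm5c siRNA libraries and 148, 145, 140.1, 141 and 144 CPM in scramble libraries on day −2. It had 153, 155, 158, 153 and 149 CPM with Kdm5c siRNA and 152, 150.1, 157, 160.2 and 157 CPM with scramble on day −1. On day 0 it had 165, 165, 164, 162 and 158 CPM with Kdm5c siRNA and 184, 189, 191, 184 and 190.4 CPM with scramble. The scramble day 0 libraries stood clear of every other library. Their mean was 1.30 times that of scramble day −2 (log2 fold change 0.34, SE 0.02, adjusted p = 2.13e-16). Between day −1 and day −2 of scramble the CPM values did not overlap, but the scaled log2 fold change of 0.04 (adjusted p = 0.113) missed the threshold, and with upper-quartile scaling or none it was 0.10 and 0.11 (adjusted p = 0.00013 and 2.67e-05). It also passed in the limma settings (0.11 each), with a filter of 5 CPM in 5 libraries (0.0529, adjusted p = 0.0289), without scramble day −1 replicate 2 (0.0499, adjusted p = 0.0466) and without replicates 1, 2 and 3 (0.07, adjusted p = 0.0249). The call for that first day thus depends on the scaling, the filter and the libraries, while the later rise (log2 fold change 0.31, adjusted p = 1.65e-14) kept its direction and its call in all 14 alternatives.

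Snhg12 had 30.6, 33.5, 32.2, 33.5 and 33.2 CPM in Kdm5c siRNA libraries and 32.1, 32.4, 32.3, 33.4 and 32.1 CPM in scramble libraries on day −2. On day −1 it had 34.2, 34.8, 33.5, 33.6 and 32.6 CPM with Kdm5c siRNA and 30.6, 30.7, 32.0, 34.7 and 34.8 CPM with scramble. On day 0 it had 39.9, 36.1, 35.8, 39.1 and 34.3 CPM with Kdm5c siRNA and 45.8, 41.3, 43.9, 42.7 and 41.9 CPM with scramble. As for Gas5, the scramble day 0 libraries were the highest of all 30, and the earlier groups overlapped one another. Snhg12 rose 1.33-fold in scramble from day −2 to day 0 (log2 fold change 0.37, SE 0.04, adjusted p = 9.38e-11). Its first step, day −1 over day −2, was −0.07 (adjusted p = 0.107), was called as lower without scramble day −1 replicate 4 or 5 (−0.09 for both, adjusted p = 0.0364 and 0.0361), without both (−0.14, adjusted p = 0.00362) and with no filter on low counts (−0.10, adjusted p = 0.0368), and was 0.0031 with no scaling.

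Snhg1, Snhg3, Snhg4 and Snhg5 fell in both steps of the scramble time course, and Snhg6 in the first. Snhg3, host of the H/ACA RNA Snora73, fell furthest. It averaged 16.1 ± 0.699, 12.004 ± 0.537 and 7.71 ± 0.392 CPM on days −2, −1 and 0 with Kdm5c siRNA and 17.04 ± 0.505, 11.04 ± 1.09 and 7.45 ± 0.869 CPM with scramble (SD, n = 5 each). In scramble libraries it was down by more than a factor of 2 on day 0 relative to day −2 (log2 fold change −1.23, SE 0.06, adjusted p = 2.98e-19), with 590 genes lower in fold change. Rcc1, which shares exon bases with it, fell too (log2 fold change −1.69, SE 0.05, adjusted p = 2.44e-26), at 24.4 to 28.5 CPM in scramble day 0 libraries and 80.3 to 88.2 CPM in scramble day −2 libraries; its part in the Snhg3 change was not tested.

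Snhg4, host of the Snora74 guides, averaged 24.98 ± 1.50, 18.7 ± 1.09 and 13.3 ± 0.913 CPM on days −2, −1 and 0 with Kdm5c siRNA and 25.9 ± 1.49, 17.9 ± 1.53 and 12.5 ± 1.65 CPM with scramble. Snhg5, host of the Snord50 guides, averaged 33.4 ± 0.721, 26.3 ± 1.18 and 19.03 ± 0.673 CPM with Kdm5c siRNA and 33.3 ± 0.564, 25.05 ± 1.45 and 18.9 ± 1.10 CPM with scramble over the same days. Snhg1, which hosts a row of box C/D guides, averaged 60.7 ± 1.60, 53.2 ± 0.916 and 42.0 ± 1.38 CPM with Kdm5c siRNA and 61.1 ± 1.10, 50.1 ± 3.34 and 41.0 ± 1.54 CPM with scramble. In these 3 hosts no library of a day overlapped one of the day before within the same siRNA. Set against day −2, the scramble day 0 log2 fold changes were −1.09 for Snhg4, −0.85 for Snhg5 and −0.62 for Snhg1 (SE 0.07, 0.04 and 0.03, adjusted p = 6.01e-17, 3.2e-20 and 1.74e-18).

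Snhg6, host of Snord87, averaged 19.9 ± 1.13, 17.5 ± 1.15 and 15.2 ± 1.11 CPM on days −2, −1 and 0 with Kdm5c siRNA and 19.9 ± 0.935, 16.2 ± 1.07 and 15.3 ± 0.794 CPM with scramble. In scramble it fell by 0.37 on the log2 scale between day −2 and day −1 (adjusted p = 1.63e-07), and its day 0 over day −1 value of −0.05 was not called (95% interval −0.16 to 0.06, adjusted p = 0.427). The whole change from day −2 to day 0 was −0.42 (SE 0.05, adjusted p = 1.1e-08).

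Snhg8, host of Snora24, went up and then down. It had 26.7, 25.9, 28.1, 25.2 and 26.1 CPM with Kdm5c siRNA and 29.1, 29.7, 26.04, 27.6 and 27.7 CPM with scramble on day −2. On day −1 it had 31.0, 29.7, 30.2, 28.2 and 28.9 CPM with Kdm5c siRNA and 28.3, 34.7, 33.4, 32.1 and 32.9 CPM with scramble, and on day 0 25.4, 24.8, 23.6, 24.1 and 25.99 CPM with Kdm5c siRNA and 29.4, 25.2, 27.2, 28.4 and 29.1 CPM with scramble. The scramble groups of all 3 days overlapped. In scramble it was higher on day −1 than on day −2 (log2 fold change 0.13, SE 0.05, adjusted p = 0.00928) and lower on day 0 than on day −1 (−0.18, SE 0.05, adjusted p = 0.000835), which left day 0 against day −2 at −0.05 (95% interval −0.14 to 0.05, adjusted p = 0.352). The first step lost its call with no filter on low counts (log2 fold change 0.10, adjusted p = 0.0668).

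**Figure D2:**
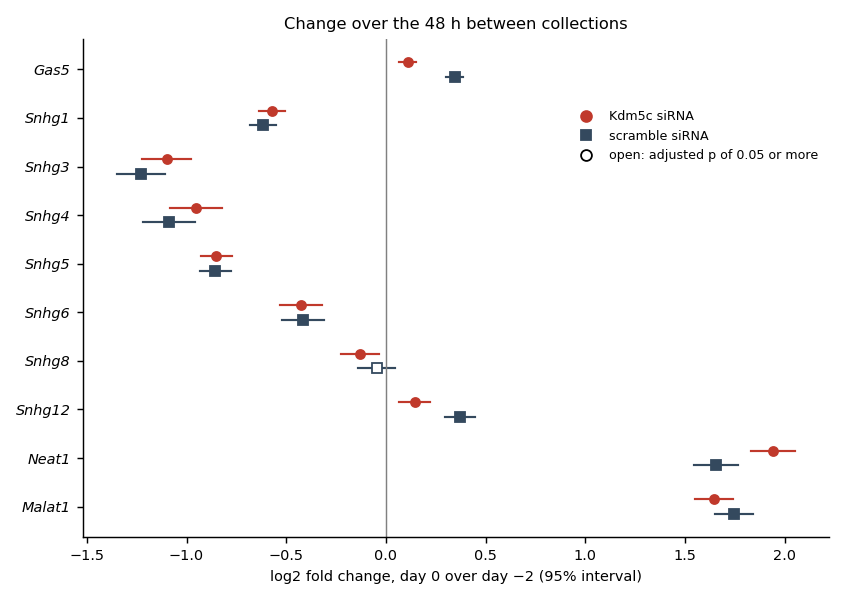
Log2 fold change of day 0 over day −2 (horizontal axis) for each RNA in Kdm5c siRNA libraries (red circles, above) and scramble libraries (dark squares, below), with 95% intervals; an open symbol has an adjusted p of 0.05 or more. Gas5 and Snhg12 stand further left with Kdm5c siRNA (0.11 and 0.14) than with scramble (0.34 and 0.37), and Neat1 further right with Kdm5c siRNA (1.94) than with scramble (1.65).

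Kdm5c siRNA libraries ran the same course with other sizes. From day −2 to day 0, 4 of the 10 RNAs were higher and 6 lower, where 87.4% of all genes were called, 43.8% as higher and 43.6% as lower. In 9 of the 10 the days did not overlap, as in 78.1% of all genes. Gas5 rose by 0.11 (SE 0.02, adjusted p = 2.48e-05) and Snhg12 by 0.14 (SE 0.04, adjusted p = 0.00118) on the log2 scale. With no filter on low counts these calls were lost, at 0.06 and 0.09 (adjusted p = 0.0758 and 0.0566). Snhg8 fell by 0.13 on the log2 scale (adjusted p = 0.0122), a call lost with upper-quartile scaling (−0.07, adjusted p = 0.175), with no scaling and in the limma settings (−0.08 to −0.09, adjusted p of 0.0705 at the lowest and 0.0785 at the highest). The difference between the siRNAs was tested directly, with the result given after the day 0 comparison.

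Lists of related genes moved in the same scramble comparison as follows. Of 24 proliferation genes, such as the cyclin-dependent kinase gene Cdk1, 24 fell from day −2 to day 0 (median log2 fold change −1.48), and of 19 growth arrest genes 14 rose and 4 fell (median 0.78). Among the 19 proteins of box C/D and H/ACA guide RNA particles tested, 18 fell (median −1.15), with Dkc1, the pseudouridine synthase of the H/ACA particles, at −1.90 (adjusted p = 6.93e-27). The median of all genes was 0.00. Of 11 other small RNA hosts, which include the microRNA host Mir17hg, 7 fell and 2 rose. Dancr fell by 1.27 and Mir17hg by 1.46 on the log2 scale, and Snhg18 rose by 0.81 (adjusted p = 1.09e-17, 3.17e-13 and 2.74e-19). Of 24 paraspeckle proteins 20 fell and 2 rose (median −0.46), and of 25 nuclear speckle proteins 17 fell and 7 rose (median −0.27). Of 12 tested factors of Malat1 and Neat1 end processing, 11 fell, among them Elac2, the RNase Z gene, at −1.30 and Mettl16, a methyltransferase gene, at −1.06 (adjusted p = 1.45e-27 and 4.74e-25). Of 21 factors of nonsense-mediated decay and the exon junction 15 fell and 4 rose (median −0.32). Of 15 other long non-coding RNAs 10 rose and 1 fell (median 0.41); Airn, antisense to an imprinted receptor gene, rose by 3.16 and the X-linked Firre by 2.16 (adjusted p = 1.32e-27 and 7.9e-28).

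The comparisons of Kdm5c siRNA with scramble asked how the RNAs differed between the siRNAs on each day. No other siRNA against Kdm5c and no rescue is among the groups. Effects of the siRNA on other targets therefore cannot be told apart from those of lower Kdm5c. None of the 10 RNAs exceeded 0.22 in absolute log2 fold change on any day. The effects were small beside the scramble time course for Neat1, Malat1, Snhg1, Snhg3, Snhg4, Snhg5 and Snhg6. This did not hold for Gas5, Snhg12 and Snhg8, at −0.20, −0.22 and −0.17 on day 0. Their scramble changes from day −2 to day 0 were 0.34, 0.37 and −0.05. On day −2, Neat1 was the 1 RNA called, and it was lower; 23.2% of all genes were called, 11.9% as lower. In none of the 10 (16.1% of all genes) were the libraries of Kdm5c siRNA and scramble apart. Its Kdm5c siRNA values were 38.3 to 47.6 CPM and its scramble values 47.0 to 52.2 CPM. The mean was 12.5% lower with Kdm5c siRNA (log2 fold change −0.19, SE 0.06, adjusted p = 0.0248), and 810 genes had a lower fold change. The call did not survive the loss of any of 4 single libraries: without scramble replicate 1 or 5 the value was −0.17 for both (adjusted p = 0.0562 and 0.0558), without Kdm5c siRNA replicate 3 −0.17 (adjusted p = 0.061) and without Kdm5c siRNA replicate 5 −0.14 (adjusted p = 0.103). The other 9 RNAs were not called, with 95% intervals reaching from −0.19 at the lowest (Snhg3) to 0.11 at the highest (Malat1).

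The scramble libraries of day −1 were split for most of the 10 RNAs. Replicates 4 and 5 both lay above replicates 1, 2 and 3 for 7 of the 10 RNAs (Gas5, Snhg1, Snhg3, Snhg4, Snhg5, Snhg6 and Snhg12) and both below them for Neat1. Such a split was seen in 41.0% of all genes in that group. In the other 5 groups it was seen in 18.9% to 26.6% of genes and in 0 to 4 of the 10 RNAs. The split was picked from the values of this group, which by itself raises its share here. Over all genes, the mean absolute deviation of a library from its group was 0.0603 to 0.0715 here on the log2 scale. It was 0.0578 to 0.0815 in the other groups. The comparison was therefore also run without replicates 1, 2 and 3 and without replicates 4 and 5, settings chosen after seeing the data.

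**Figure D3:**
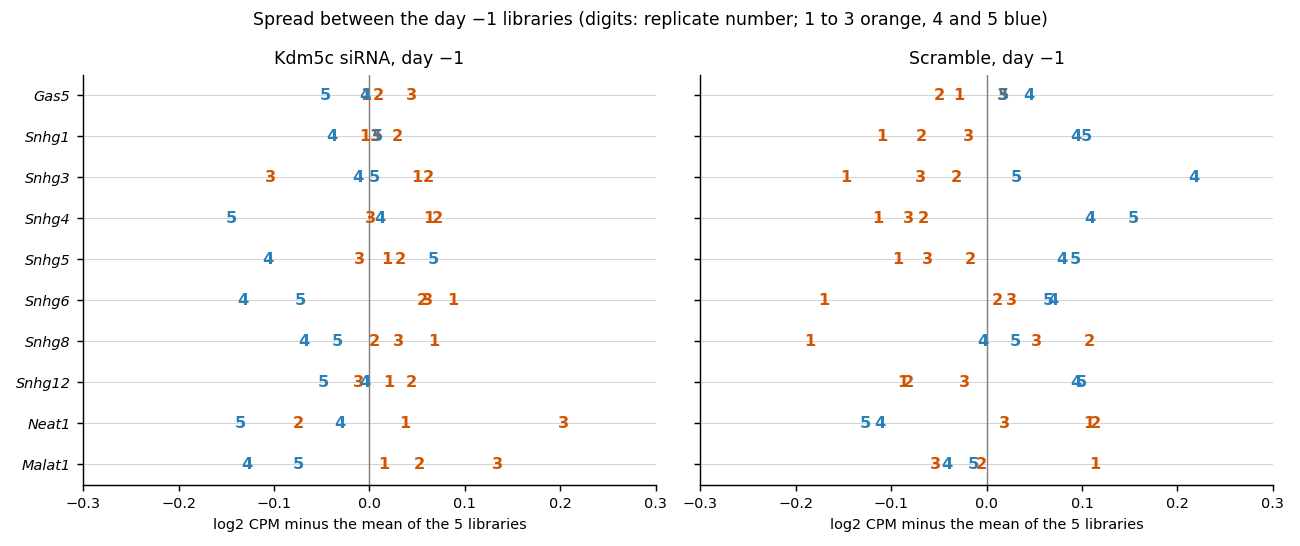
Log2 CPM of each day −1 library minus the mean of its 5 libraries (horizontal axis), for Kdm5c siRNA on the left and scramble on the right; digits are replicate numbers, 1 to 3 in orange, 4 and 5 in blue. In scramble, 4 and 5 stand to the right of 1 to 3 for 7 RNAs and to the left for Neat1.

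On day −1, Snhg1 was higher and Snhg8 and Malat1 lower with Kdm5c siRNA, 3 of the 10 RNAs, where 35.6% of all genes were called, 18.8% as higher and 16.8% as lower. None of the 10 had non-overlapping libraries, against 22.3% of all genes. Snhg1 had 53.0, 54.3, 53.4, 51.8 and 53.5 CPM with Kdm5c siRNA and 46.4, 47.7, 49.4, 53.4 and 53.8 CPM with scramble (log2 fold change 0.09, SE 0.03, adjusted p = 0.0337). Scramble replicates 4 and 5 lay within or near the Kdm5c siRNA range. Without replicates 1, 2 and 3, which are the lowest for Snhg1, the value was −0.0097 (adjusted p = 0.881), as the choice of libraries brings about. Snhg8 and Malat1 stood at −0.12 and −0.13 (SE 0.05 each, adjusted p = 0.0317 and 0.0403), with overlapping libraries. Without scramble replicates 1, 2 and 3 they were at −0.14 and −0.10 (adjusted p = 0.067 and 0.292), and then 0 of the 10 RNAs and 2568 instead of 4272 of all genes were called. That fit keeps only scramble replicates 4 and 5, so having fewer libraries can by itself lower the number of calls. Without replicates 4 and 5 the count was 5, with Snhg3, Snhg5 and Snhg12 called as higher at 0.21, 0.13 and 0.12 (adjusted p = 0.0104, 0.013 and 0.0209). Replicates 4 and 5 are the highest scramble libraries for Snhg3, Snhg5 and Snhg12, so leaving them out raises these values by selection. These added calls therefore cannot decide whether the siRNA changed Snhg3, Snhg5 and Snhg12. Over the 14 alternatives of this day, 2568 to 4345 of all genes were called. The Snhg1 call was also lost with upper-quartile scaling (0.08, adjusted p = 0.051), no filter on low counts (0.09, adjusted p = 0.105), reads recovered from CPM with edgeR's filter (0.09, adjusted p = 0.0507) and only the libraries of the comparison (0.09, adjusted p = 0.0893). The Malat1 call was lost with DESeq2 (−0.13, adjusted p = 0.0542) and the Snhg8 call without scramble replicates 4 and 5 (−0.12, adjusted p = 0.091). Each of the 3 calls was also lost on leaving out any of 6 single libraries. For Snhg1 these were scramble replicates 1, 2 and 3 and Kdm5c siRNA replicates 2, 3 and 5 (0.06 to 0.09). For Snhg8 they were scramble replicates 2, 3 and 5 and Kdm5c siRNA replicates 2, 4 and 5 (−0.10 to −0.12), and for Malat1 scramble replicates 1, 2 and 5 and Kdm5c siRNA replicates 1, 4 and 5 (−0.09 to −0.13). Snhg3 became called without scramble replicate 4 (0.18, adjusted p = 0.016).

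Day 0 gave the clearest difference. Gas5, Snhg12 and Snhg8 were lower with Kdm5c siRNA, 3 of the 10 RNAs and none higher, where 35.5% of all genes were called and 16.2% called as lower. The count of calls is thus near the share over all genes. For Gas5 and Snhg12, 2 of the 10, Kdm5c siRNA and scramble libraries were fully apart, as in 21.7% of all genes. Gas5 averaged 163 ± 2.67 CPM with Kdm5c siRNA and 188 ± 3.61 CPM with scramble (SD, n = 5 each), 13.2% lower (log2 fold change −0.20, SE 0.02, adjusted p = 5.84e-09). Its highest Kdm5c siRNA library had 165 CPM and its lowest scramble library 184 CPM, and the value was −0.19 to −0.21 when each library was left out in turn. Snhg12 averaged 37.0 ± 2.36 CPM with Kdm5c siRNA and 43.1 ± 1.78 CPM with scramble, 14.1% lower (log2 fold change −0.22, SE 0.04, adjusted p = 3.41e-05). Its libraries came closer, with 39.9 CPM as the highest with Kdm5c siRNA and 41.3 CPM as the lowest with scramble. Of the genes tested, 945 had a lower fold change than Gas5 and 832 a lower one than Snhg12. Zbtb37, opposite Gas5, stood at 0.09 (adjusted p = 0.1).

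Snhg8 averaged 24.8 ± 0.969 CPM with Kdm5c siRNA and 27.9 ± 1.70 CPM with scramble on day 0, 11.1% lower (log2 fold change −0.17, SE 0.05, adjusted p = 0.0056). Scramble replicate 2, at 25.2 CPM, lay within the Kdm5c siRNA range of 23.6 to 25.99 CPM. The calls of Gas5, Snhg12 and Snhg8 on this day held in all 12 alternatives and on leaving out each library.

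The other 7 RNAs were not called on day 0. Neat1 averaged 174 ± 7.16 CPM with Kdm5c siRNA and 162 ± 8.06 CPM with scramble (log2 fold change 0.10, 95% interval 0.00 to 0.20, adjusted p = 0.114). Malat1 averaged 1119 ± 46.1 CPM with Kdm5c siRNA and 1188 ± 96.2 CPM with scramble (log2 fold change −0.08, 95% interval −0.18 to 0.01, adjusted p = 0.179). Both were called with no filter on low counts (0.10 and −0.09, adjusted p = 0.00722 and 0.00242); Neat1 was also called in a fit of only the day 0 libraries (0.10, adjusted p = 0.0441), and Malat1 without scramble replicate 1, its lowest scramble library (−0.13, adjusted p = 0.0159). The 5 hosts that fall over time lay between −0.01 (Snhg6) and 0.09 (Snhg4), and their intervals ran from −0.12 to 0.23 at the widest, so a change as large as that of Gas5 in the downward direction lies outside them.

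**Figure D4:**
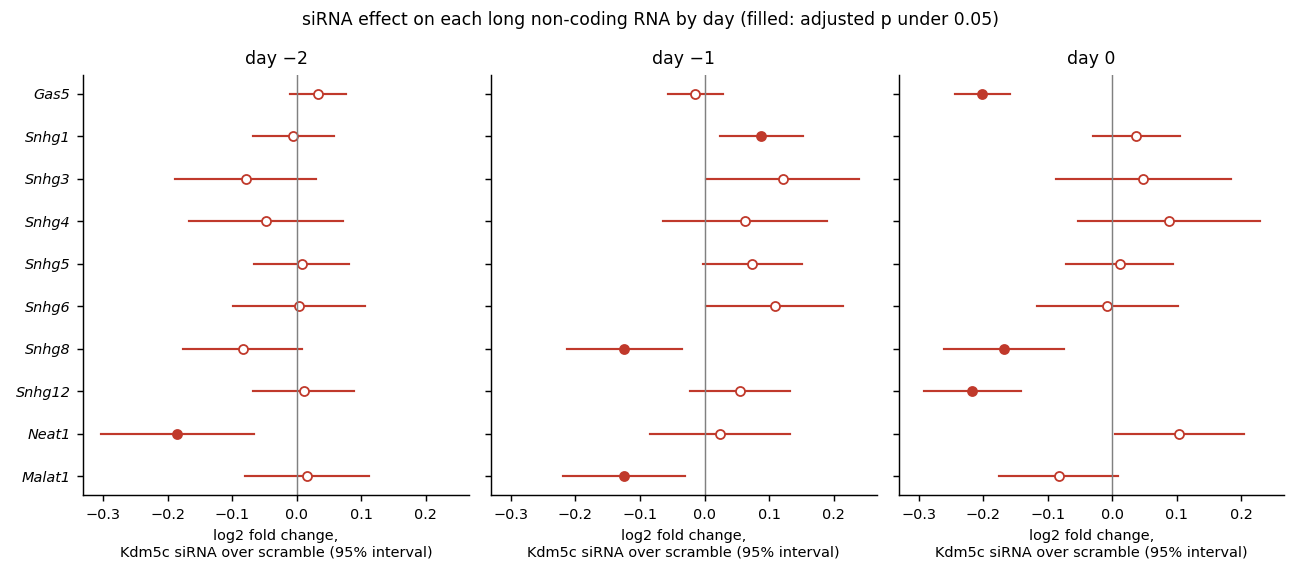
Log2 fold change of Kdm5c siRNA over scramble (horizontal axes) for each RNA on day −2, day −1 and day 0, with 95% intervals; filled circles have an adjusted p under 0.05. Gas5 and Snhg12 lie near 0 on the first 2 days and at −0.20 and −0.22 on day 0.

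Whether the siRNA effect differed between days was tested as a difference of effects, day 0 minus day −2. It was called for 3 of the 10 RNAs, 1 higher and 2 lower, where 16.1% of all genes were called, 9.95% as higher and 6.18% as lower. For Gas5 the difference was −0.23 (SE 0.03, adjusted p = 1.98e-06), from effects of −0.20 on day 0 and 0.03 on day −2. For Snhg12 it was −0.23 (SE 0.06, adjusted p = 0.0041), from −0.22 and 0.01. For Neat1 it was 0.29 (SE 0.08, adjusted p = 0.0104), from 0.10 and −0.19. These 3 calls held in all 12 alternatives and in all 20 fits with 1 library left out. For Snhg8 the difference of −0.08 was not called (95% interval −0.22 to 0.05, adjusted p = 0.438). The scramble libraries of day 0 and day −2 enter both this test and the scramble time course, so the 2 comparisons are not independent; side by side, Gas5 rose by 0.11 with Kdm5c siRNA and 0.34 with scramble, Snhg12 by 0.14 and 0.37, and Neat1 by 1.94 and 1.65.

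**Figure D5:**
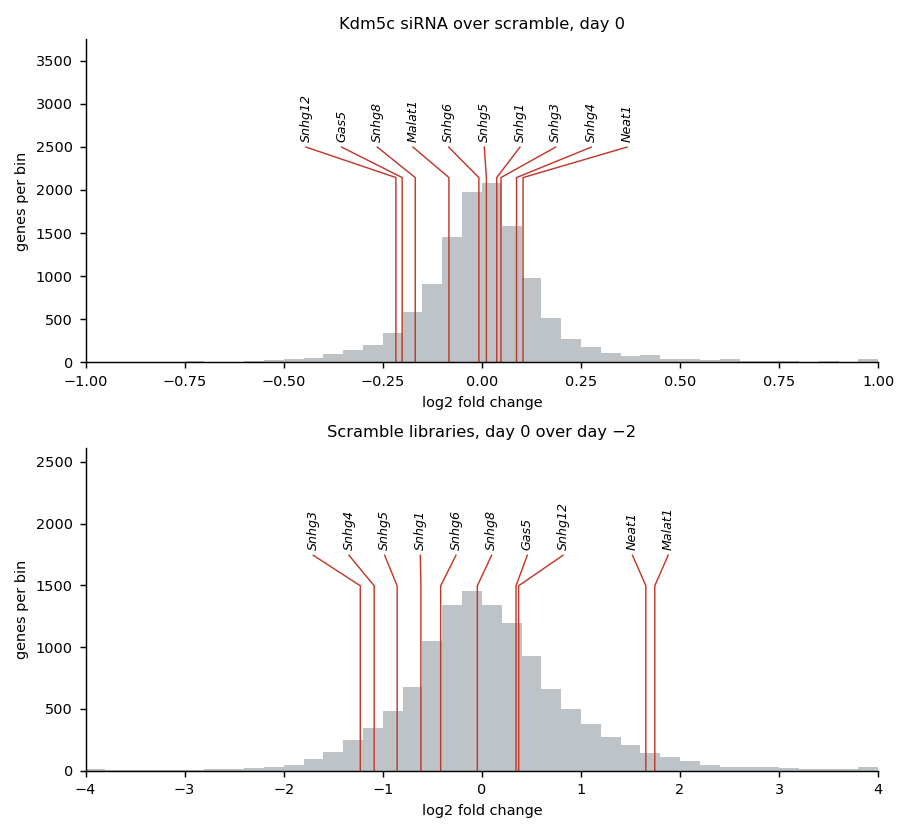
Number of genes per bin of log2 fold change (grey bars, 12016 genes; genes beyond an axis are in its outermost bin) for Kdm5c siRNA over scramble on day 0 (top) and day 0 over day −2 in scramble (bottom), with red lines at the 10 RNAs. In the upper panel Snhg12 and Gas5 lie furthest left at −0.22 and −0.20, and in the lower one Neat1 and Malat1 lie furthest right at 1.65 and 1.75.

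Genes of other groups were also called on day 0 between Kdm5c siRNA and scramble, and their values stand here beside those of Gas5, Snhg12 and Snhg8. Of all genes, 19.3% were called as higher and 16.2% as lower on this day, and some of the group counts lie near these shares. Of 24 TOP mRNAs outside the ribosome 13 fell and 1 rose (median log2 fold change −0.07, against 0.00 over all genes). Eif4b, which encodes an initiation factor, had 781 to 811 CPM with Kdm5c siRNA and 877 to 936 CPM with scramble, a log2 fold change of −0.20 (adjusted p = 1.31e-10), and Tpt1, the translationally controlled tumour protein gene, stood at −0.19 (adjusted p = 1.67e-07). Of 24 proliferation genes 16 rose and 0 fell on day 0 (median 0.13); Cdk1 had 46.9 to 53.7 CPM with Kdm5c siRNA and 40.1 to 44.4 CPM with scramble (log2 fold change 0.22, adjusted p = 2.71e-06). Of 19 growth arrest genes 4 rose and 7 fell. Of 21 decay and exon junction factors 6 rose and 2 fell, and of 19 guide RNA particle proteins 7 rose and 0 fell. Of 7 mitochondrial mRNAs tested 5 fell. All 13 listed, tested or not, summed to 21372 to 22661 CPM with Kdm5c siRNA and 22679 to 24333 CPM with scramble. The 6 adipocyte markers, of which Fabp4 made up nearly all, summed to 28.7 to 35.5 CPM with Kdm5c siRNA and 21.97 to 28.8 CPM with scramble. The part of these groups in the result for Gas5, Snhg12 and Snhg8 was not tested.

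Among the 11 other small RNA hosts, Mir17hg included, 2 fell and 2 rose with Kdm5c siRNA on day 0. Zfas1, host of box C/D guides, had 37.9, 42.2, 38.2, 39.0 and 39.4 CPM with Kdm5c siRNA and 46.4, 46.1, 47.3, 47.7 and 47.4 CPM with scramble, with no overlap (log2 fold change −0.25, adjusted p = 1.94e-06). Its difference of effects between day 0 and day −2 was −0.33 (adjusted p = 3.08e-05), the 1 called among these 11. Epb41l4aos was also lower on day 0 (−0.40, adjusted p = 0.00157), and Snhg18 and Snhg15 were higher (0.15 and 0.20, adjusted p = 0.00206 and 0.0291). Of 15 other long non-coding RNAs 5 fell and 1 rose on day 0. H19, an imprinted RNA of growing tissue, had 2.09 to 2.40 CPM with Kdm5c siRNA and 10.3 to 12.3 CPM with scramble (log2 fold change −2.33, adjusted p = 6.13e-19), a far larger change than that of any of the 10 RNAs. Of 24 paraspeckle proteins 3 rose and 3 fell, and of 25 nuclear speckle proteins 1 rose and 2 fell.

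Across the 30 libraries the RNAs fell into sets with like profiles, given as a description since all share the same time course. Pearson's r of log2(CPM + 0.5) was 0.99 between Neat1 and Malat1, 0.90 between Gas5 and Snhg12, and 0.97 to 0.98 among Snhg1, Snhg3, Snhg4 and Snhg5. Snhg8 had an r between −0.25 and 0.20 with every other of the 10. Over all tested genes, the 3 most like Gas5 were Paqr3, Itpr1 and Abhd2 (r of 0.93 each), and the 3 most like Snhg12 were Rnf114, Gas5 and Paqr3 (0.90, 0.90 and 0.89). Neat1 was closest to Adamts10, C3 and Mmp14 (0.99 each), and Malat1 to Dcn, which encodes the matrix proteoglycan decorin, Ifi30 and Ogt (0.99 to 1.00). Profiles like Neat1's were common, with an r over 0.9 in 2115 genes, and the same held for Malat1 in 1913. Those of the declining hosts were more common still, with 2336 genes for Snhg1, 2359 for Snhg3, 2239 for Snhg4 and 2423 for Snhg5. Snhg6 had 139. Snhg3, by the same measure, was closest to Scrib and Elavl1, Snhg5 to Heatr3, Naa50 and Cct4, Snhg1 to Eif1ad, Ubqln4 and Adsl, and Snhg4 to Prrc2a, Hmga1 and Rcl1 (0.98 to 0.99). Gas5 had 71 genes over 0.9, Snhg12 had 3 and Snhg8 had 0, with Kif13a its closest at 0.85; Snhg6 was closest to Znhit6 at 0.93.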

How the data were processed

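RNA of 30 libraries was read from 2 tables the authors deposited. The first holds CPM for 55573 genes; multiplied by the library total, 100.0% of its values above 0 gave a whole read to within 0.05. The second, named as normalized, holds raw counts for 12016 genes that reach 1 CPM in 20 libraries or more, and the deposited counts equalled the recovered reads in 100.0% of values. STAR 2.7.2a, edgeR 3.26.8 and GRCm38 are named in the submitters' processing notes; which read counter and annotation were used is not given in the sources used here. Library totals were 25217905 to 33725717 reads, of which 99.7 to 99.8% lay in the count table.

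CPM is printed as deposited. The counts were tested with edgeR 4.0.16 in R 4.3.3 (quasi-likelihood, TMM scaling, 6 group means over all 30 libraries, 24 residual degrees of freedom), two-sided, adjusted by Benjamini-Hochberg over 12016 genes, and called under 0.05. SE and 95% intervals are those of the model's log2 fold change, which is TMM-scaled, unlike CPM. The intervals use the normal distribution and are slightly narrower than the quasi-likelihood test implies. For Snhg3 on day −1 the interval for Kdm5c siRNA over scramble was 0.002 to 0.24, with an unadjusted p of 0.0546 in that test. Alternatives were limma 3.58.1, DESeq2 1.42.0, other scalings and filters, a replicate block, the libraries of a contrast alone and each library left out. Symbols came from GENCODE M21, which held 12010 of the 12016 identifiers. The members and gene lists were chosen with earlier results of these data known. Named genes are the 10 RNAs, Kdm5c, up to 4 genes with the smallest adjusted p per list and comparison, the 3 genes most like each RNA, and genes that overlap one; 1 gene under this rule is not reported here. Same-numbered libraries did not pair: of 35 pairs, 6 had a correlation of deviations over 0.1 (range −0.225 to 0.299).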

Additional observations from a re-analysis of the deposited data

Results flagged for a closer look

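Among the 60 sets of 5 libraries (10 RNAs in 6 groups), 4 held a library far from the others by a test on the gap to the nearest library over the range, and chance gives about 1 in 20. Scramble day −1 replicate 1 was the lowest for Snhg6, at 14.4 CPM, and the highest for Malat1, at 601 CPM. For Snhg12, scramble day −2 replicate 4 stood highest, at 33.4 CPM. Malat1 was highest in Kdm5c siRNA day 0 replicate 5, at 1200.4 CPM.

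The siRNA effect differed between day 0 and day −2 by the test of the difference for Gas5 (−0.23 on the log2 scale), Snhg12 (−0.23) and Neat1 (0.29).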

How the results depend on the processing

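Of 592 values of called RNAs under another setting, 574 kept their direction and call, 17 lost the call and 1 reversed; of 490 with 1 library left out, 468 kept both and 22 lost the call. The reversed call was Snhg1 on day −1 without scramble replicates 1, 2 and 3 (−0.0097), which was chosen after seeing the data. In it, uncalled siRNA effects of that day changed sign for Snhg3 (−0.003), Snhg4 (−0.066), Snhg5 (−0.012) and Snhg12 (−0.041), as did scramble day −1 against day −2 for Snhg12 (0.026). Without scramble replicates 4 and 5, Gas5 (0.0078) and Neat1 (−0.052) changed sign on day −1. Scramble replicates 4 and 5 lay above 1, 2 and 3 for Gas5, Snhg1, Snhg3, Snhg4, Snhg5 and Snhg12, and below them for Neat1. The choice of libraries thus brings about the direction of these shifts. What split the libraries was not tested.

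Counts moved as follows. On day −1, 0 RNAs and 2568 genes were called without scramble replicates 1, 2 and 3, and 5 RNAs without 4 and 5. Both subsets were chosen after seeing the data, and the first keeps only scramble replicates 4 and 5. Over the 14 alternatives of that day, 2568 to 4345 of all genes were called. On day 0, 5 RNAs were called with no filter on low counts, a setting in which 32318 genes were tested. Over the 12 alternatives of day 0, 3940 to 4383 of all genes were called. With 1 library left out, 0 to 1 RNAs were called on day −2, 0 to 4 on day −1 and 3 to 4 on day 0. Of all genes, 2292 to 2670, 3721 to 4199 and 3804 to 4305 were called in those fits.

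Other uncalled values near 0 changed sign. Snhg6 on day −2 was −0.001 with no scaling and −0.0022, −0.0023 and −0.002 with limma at pseudocounts of 0.5, 0.1 and 2. Snhg12 in scramble day −1 against day −2 was 0.0031 with no scaling and 0.0004, 0.0003 and 0.0004 with those limma settings. Snhg8 in scramble day 0 against day −2 was 0.013 with upper-quartile scaling, and the Snhg5 difference of effects was −0.0039 with no filter. With 1 library left out, day −2 values spanned −0.016 to 0.0099 for Snhg1, −0.0022 to 0.019 for Snhg5, −0.032 to 0.031 for Snhg6, −0.0011 to 0.034 for Snhg12 and −0.012 to 0.048 for Malat1. Neat1 on day −1 spanned −0.030 to 0.056. Day 0 values spanned −0.018 to 0.085 for Snhg3, −0.021 to 0.031 for Snhg5 and −0.036 to 0.017 for Snhg6, and the differences of effects −0.028 to 0.024 for Snhg5 and −0.040 to 0.024 for Snhg6.

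With a replicate block, 4205 genes and 3 of the 10 RNAs were called on day 0, and the block ended 1 call among the RNAs, Malat1 on day −1 (−0.13, adjusted p = 0.0512). Libraries held at least 157 reads of each RNA, so depth limits Snhg3 most.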
